A study of Mus musculus with 9 samples.

Results

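The IL-1 family genes described here are Il33 with its receptor subunits, the other IL-1 ligands and antagonist, the protease Casp1 and the cytokine Tslp, as measured in skin-derived precursor cells (SKPs) and in Sox2-sorted cells of mouse skin. Of 10 genes in the set, 8 were found as a row with a single gene symbol, out of 19938 genes measured in that way: Il33, Il1rap, Il1a, Il1b, Il1rn, Il18, Casp1 and Tslp. Il1rl1 and Il1r1, which encode the receptors of IL-33 and of IL-1, are not analysed here. The set was selected on earlier results of these arrays, in which Il33 was already known to be far higher in SKPs, so the difference of Il33 is given as a description without a test. A gene with several rows would have been represented by the one with the highest mean over all 9 arrays, but each of the 8 had 1 row.

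The IL-1 family is a group of cytokines that start inflammation, several of which act as alarm signals from damaged cells. IL-33 is held in the nucleus of skin barrier and stromal cells and, once released, binds ST2 (Il1rl1) together with the shared accessory protein IL1RAP, while IL-1alpha and IL-1beta bind IL1R1 with the same accessory protein and IL1RN blocks that receptor. Caspase-1, the enzyme of inflammasomes, cleaves the precursors of IL-1beta and IL-18 into their active forms. TSLP, a cytokine of the IL-7 type, acts beside IL-33 on the immune cells of allergic skin.

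In the 4 SKP preparations, numbered 3, 4, 5 and 6, RNA came from spherical colonies grown as a primary culture from back skin of mice at postnatal day 4, whose strain is not stated for the colonies. In the 5 sorted preparations, numbered 2, 16, 17, 18 and 20, it came from uncultured back skin cells of Sox2:EGFP mice of the same age that were positive for the Sox2:EGFP reporter and negative for CD34. Per the design text each array is an independent preparation. Levels are log2 RMA values, so a difference of 1 is a 2-fold difference, and culture, sorting and cell choice differ together between the groups and cannot be told apart.

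Sorted arrays 2 and 20 stood apart from the other 3 sorted arrays. The mean of 10 keratinocyte markers was 10.42 and 12.02 on arrays 2 and 20, and 9.37 to 9.58 on the other sorted arrays. The mean of 7 dermal fibroblast markers was 12.07 and 12.08 on the same pair and 11.20 to 11.23 on the others. In contrast, 8 dermal papilla markers, Sox2 among them, averaged 10.82 and 10.23 on the pair and 11.77 to 11.96 on the others. Sox2 itself went the other way, at 9.25 and 8.97 on arrays 2 and 20 against 8.61, 8.40 and 8.24 on arrays 16, 17 and 18. SKP arrays were at 6.44 to 6.80 for keratinocyte, 12.09 to 12.26 for fibroblast and 6.02 to 6.35 for papilla markers. As a guide to background, the 1027 olfactory receptor genes on the array had a 95th percentile of 6.16 in SKPs and 6.10 in sorted cells, and lower levels are called background level below.

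In SKPs, Casp1 and Il33 stood roughly 20-fold above the sorted cells, and Il1rap was higher by less than 2-fold. The cytokine genes Il1a, Il1b, Il18 and Tslp lay at background level in both groups. Apart from Il33, 3 of 7 members (Casp1, Il1rap and Tslp) were called higher in SKPs and 0 lower, at an adjusted p under 0.05 in limma over all genes. Over all 19938 genes 37.0% were called, 20.2% higher and 16.9% lower in SKPs, so 3 of 7 is not far from the background. The same 3 members had groups that did not overlap, against 34.0% of all genes in either direction and 18.5% upward. The median difference of the 7 was 0.42, against 0.07 over all genes.

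**Figure D1:**
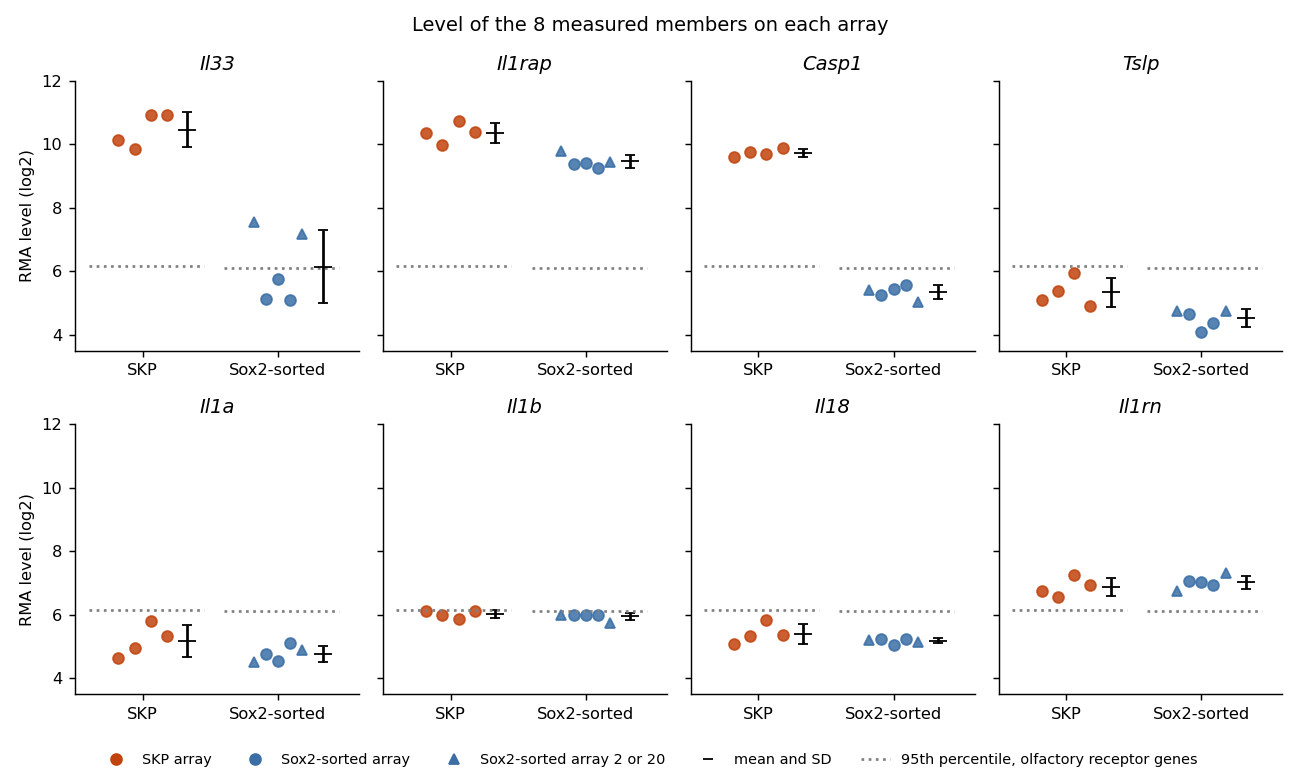
Level of each of the 8 measured members on each array (log2 RMA, vertical axis), with SKP arrays in orange left of Sox2-sorted arrays in blue, the mean and SD beside them and the 95th percentile of olfactory receptor genes as a dotted line. Triangles mark sorted arrays 2 and 20, the 2 highest sorted arrays for Il33, at 7.55 and 7.17. Il1a, Il1b, Il18 and Tslp stay under the dotted line in both groups.

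Il33, the gene of the nuclear alarm cytokine IL-33, was high on every SKP array and near background on most sorted arrays. Its level was 10.14, 9.86, 10.92 and 10.94 on SKP arrays 3, 4, 5 and 6, against 7.55, 5.13, 5.75, 5.11 and 7.17 on sorted arrays 2, 16, 17, 18 and 20. All SKP arrays lay above all sorted arrays. Arrays 2 and 20 were the 2 sorted arrays above background level, and the other 3 were under it.

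The mean of Il33 was 10.47 ± 0.55 in SKPs (SD, n = 4) and 6.14 ± 1.15 in sorted cells (SD, n = 5), a log2 difference of 4.32. Without sorted arrays 2 and 20 the difference was 5.14, with a sorted mean of 5.33. As most sorted arrays were at background level, both differences are approximate. Il33 also varied more than most genes within each group, with an SD larger than that of 99.0% of genes among SKP arrays and 99.2% among sorted arrays. Among the sorted arrays other than 2 and 20 its SD was 0.36. In bulk RNA, more cells with a transcript and more transcript per cell cannot be told apart.

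The 2 sorted arrays with the most Il33 were also those with the highest markers of several other cell types. Besides the keratinocyte and fibroblast means given above, 6 endothelial markers averaged 7.30 and 7.79 on arrays 2 and 20 against 6.27 to 6.41 on the other sorted arrays, and 9 mast cell markers averaged 6.55 and 7.02 against 5.70 to 6.03. Skin keratinocytes, fibroblasts and endothelium are all known to make IL-33. The part of these cells in the sorted level of Il33 was not tested. In SKPs the fibroblast mean was 12.09 to 12.26, the keratinocyte mean 6.44 to 6.80, the endothelial mean 6.20 to 6.65 and the mast cell mean 6.20 to 6.45. The mean of 12 myeloid markers was 6.97 to 8.56 in SKPs, against 5.89 to 6.24 in sorted cells.

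RefSeq (GRCm38.p6) places the start of Il33 at 2 sites on chromosome 19, and both 300-base promoter windows are shown because Il33 had the largest difference among the cytokine genes of the set. The array does not tell which start was used. The upstream window lies at chr19:29924863-29925162 and the downstream one at chr19:29945540-29945839, both on the plus strand. Capitals mark the letters TATAAA, searched on both strands, which 13.6% of 32851 promoter windows hold.
Il33, upstream start: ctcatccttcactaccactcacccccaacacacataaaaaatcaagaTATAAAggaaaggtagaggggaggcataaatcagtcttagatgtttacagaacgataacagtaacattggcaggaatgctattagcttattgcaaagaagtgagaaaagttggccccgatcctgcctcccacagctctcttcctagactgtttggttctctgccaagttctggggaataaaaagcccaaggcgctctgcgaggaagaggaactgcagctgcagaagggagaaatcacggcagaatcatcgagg
Il33, downstream start: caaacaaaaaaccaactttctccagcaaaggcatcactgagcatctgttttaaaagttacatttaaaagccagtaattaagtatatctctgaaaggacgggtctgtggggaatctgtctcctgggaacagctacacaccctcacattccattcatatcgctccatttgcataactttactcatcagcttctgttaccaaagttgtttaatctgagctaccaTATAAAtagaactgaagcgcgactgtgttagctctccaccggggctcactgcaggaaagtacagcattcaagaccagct
In the downstream window the match begins 29 bases before the start, which is the usual place of a TATA box, and in the upstream window it begins 203 bases before it. Neither window held the interferon response element, written as GAAA, any 2 bases and GAAA (3.44% of all windows), the STAT element TTCNNNGAA (8.30%) or the NF-kappaB consensus (4.51%), each searched on both strands. These are matches of letters in a short window and say nothing of which factors act there.

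The 5 genes whose levels most resembled Il33 over the 9 arrays, among genes with a mean level of at least 6.31, were Ftl1, Inf2, Prkcsh, Oaf and Thbs2. Their Pearson correlations with Il33 were 0.996, 0.996, 0.994, 0.994 and 0.994 over 9 arrays, as a description, since the arrays share the division into 2 groups. Thbs2, which encodes the matrix protein thrombospondin 2, was at 13.15, 12.87, 13.40 and 13.32 on SKP arrays 3, 4, 5 and 6, against 11.25, 10.15, 10.46, 10.05 and 10.92 on sorted arrays 2, 16, 17, 18 and 20. Ftl1, the light chain of the iron store ferritin, averaged 12.27 in SKPs and 10.85 in sorted cells. Like Il33, both had their 2 highest sorted values on arrays 2 and 20. Among the other members the correlation with Il33 was 0.95 for Il1rap, 0.92 for Casp1 and 0.80 for Tslp, and between -0.20 and 0.53 for the rest.

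Casp1, which encodes caspase-1, was at 9.59, 9.77, 9.70 and 9.89 on SKP arrays 3, 4, 5 and 6, against 5.40, 5.27, 5.46, 5.58 and 5.03 on sorted arrays 2, 16, 17, 18 and 20. The groups were more than 4 log2 units apart, and no sorted array rose above background level. The mean was 9.74 ± 0.13 in SKPs (SD, n = 4) and 5.35 ± 0.21 in sorted cells (SD, n = 5), a log2 difference of 4.39 (SE 0.12) or 21.0-fold, with a limma adjusted p of 9.30e-09. As the sorted mean is at background level, the fold is approximate. The SD of Casp1 in SKPs was above that of 42.7% of genes. Without sorted arrays 2 and 20 the difference was 4.30.

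Caspase-1 is abundant in macrophages, and myeloid markers were higher in SKPs as well. Of these markers, 11 of 12 were called higher and 0 lower, against 20.2% and 16.9% of all genes. Their mean was 7.55, 6.97, 8.56 and 7.91 on SKP arrays 3, 4, 5 and 6, against 5.89 to 6.24 on sorted arrays. The pan-leukocyte gene Ptprc was at 6.45, 6.21, 7.34 and 6.90 on those SKP arrays, against 5.43 to 5.83 on sorted arrays. Among the SKP arrays the myeloid mean was lowest on array 4 and highest on array 5. Casp1 ranged only from 9.59 to 9.89 there, lowest on array 3 and highest on array 6. The part of myeloid cells in the level of Casp1 was not tested.

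The promoter window of Casp1 (RefSeq, GRCm38.p6, chr9:5298267-5298566, plus strand) is shown because Casp1 was, with Il33, one of the 2 members that differed most, and it held none of the 4 motifs on either strand.
Casp1: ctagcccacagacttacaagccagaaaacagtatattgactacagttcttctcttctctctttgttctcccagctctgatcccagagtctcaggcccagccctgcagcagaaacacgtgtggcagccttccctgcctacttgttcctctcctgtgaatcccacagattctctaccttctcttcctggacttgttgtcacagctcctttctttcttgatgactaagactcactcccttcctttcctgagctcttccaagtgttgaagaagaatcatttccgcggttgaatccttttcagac

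**Figure D2:**
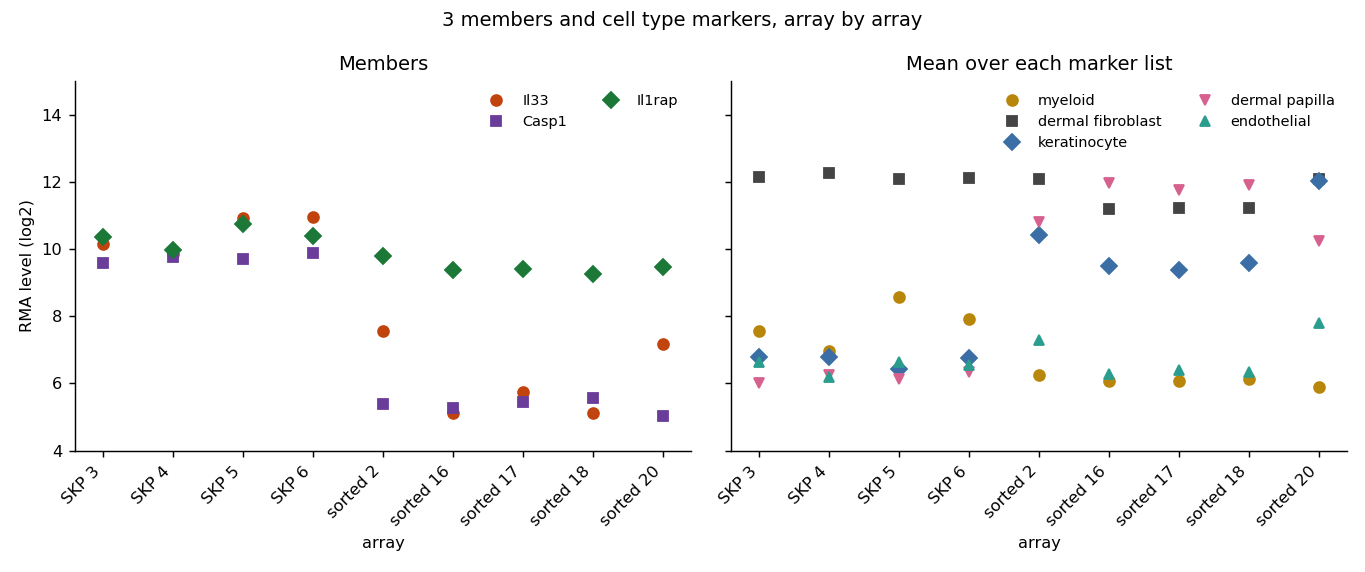
Levels on each array (log2 RMA, vertical axis) of Il33, Casp1 and Il1rap on the left and of the mean over 5 cell type marker lists on the right, with the 4 SKP arrays before the 5 sorted arrays on each horizontal axis. Il33 and the fibroblast, keratinocyte and endothelial means are higher on sorted arrays 2 and 20 than on the other 3, and Casp1 and the myeloid mean are both higher on SKP arrays (9.59 to 9.89 and 6.97 to 8.56) than on sorted arrays.

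Il1rap, the accessory protein that IL-33 and IL-1 receptors share, was above background level on all 9 arrays. It was at 10.35, 9.97, 10.74 and 10.38 on SKP arrays 3, 4, 5 and 6, against 9.80, 9.39, 9.41, 9.26 and 9.46 on sorted arrays 2, 16, 17, 18 and 20. The lowest SKP array lay just above the highest sorted array, which was array 2. The mean was 10.36 ± 0.31 in SKPs (SD, n = 4) and 9.46 ± 0.20 in sorted cells (SD, n = 5), a difference of 0.90 on the log2 scale (SE 0.16), or 1.86-fold, with a limma adjusted p of 0.00126. The array does not separate the membrane form of this protein from its soluble form. SKP array 4 held the lowest SKP level of both Il1rap and Il33.

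The promoter window of Il1rap (RefSeq, GRCm38.p6, chr16:26581455-26581754, plus strand) is shown because it was the single one of the 14 windows of the set, from 9 members, with the interferon response element. The match is in capitals and begins at base 21 after the start. With 72.0% G and C it was also the window richest in these bases among the 14, and the median over all windows was 52.7%.
Il1rap: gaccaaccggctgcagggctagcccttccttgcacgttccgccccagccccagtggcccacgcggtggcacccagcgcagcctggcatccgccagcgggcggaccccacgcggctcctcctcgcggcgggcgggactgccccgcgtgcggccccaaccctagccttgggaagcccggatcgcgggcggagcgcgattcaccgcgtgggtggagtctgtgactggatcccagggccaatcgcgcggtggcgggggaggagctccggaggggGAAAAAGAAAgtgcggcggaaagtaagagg

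The ligand genes of IL-1 and IL-18 were not called. Il1a, the gene of the alarm cytokine IL-1alpha, was at 4.64, 4.95, 5.81 and 5.33 on SKP arrays 3, 4, 5 and 6, against 4.50, 4.75, 4.55, 5.09 and 4.89 on sorted arrays 2, 16, 17, 18 and 20. These values overlapped and all were at background level, with a difference of 0.42 (95% confidence interval -0.07 to 0.92, limma adjusted p = 0.166). Il1b, the gene of the main macrophage form of IL-1, was at 6.11, 5.99, 5.85 and 6.11 on the same SKP arrays, against 5.99, 6.00, 5.99, 5.99 and 5.74 on the same sorted arrays. The overlap was nearly complete, with a difference of 0.07 (95% confidence interval -0.13 to 0.27, limma adjusted p = 0.557).

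Il18, the other cytokine that caspase-1 activates, was at 5.06, 5.31, 5.82 and 5.36 on SKP arrays 3, 4, 5 and 6, against 5.20, 5.23, 5.04, 5.23 and 5.15 on sorted arrays 2, 16, 17, 18 and 20. The groups overlapped at background level, and the difference was 0.22 (95% confidence interval -0.08 to 0.52, limma adjusted p = 0.241). For neither Il1b nor Il18, whose products caspase-1 cleaves, was a difference detectable on these arrays, and at background level this does not show that the transcripts are absent. Il1a and Il1b hold the letters TATAAA 32 and 31 bases before their starts.

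Il1rn, the antagonist of the IL-1 receptor, was above background level on every array but was not called. It was at 6.74, 6.57, 7.26 and 6.92 on SKP arrays 3, 4, 5 and 6, against 6.73, 7.07, 7.02, 6.92 and 7.32 on sorted arrays 2, 16, 17, 18 and 20. The ranges overlapped almost fully. The difference was -0.14 (95% confidence interval -0.49 to 0.20, limma adjusted p = 0.516), so the interval holds no change of 2-fold in either direction.

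Tslp, a cytokine gene of the epithelial barrier, was called higher in SKPs although every value lay at background level. It was at 5.09, 5.39, 5.96 and 4.91 on SKP arrays 3, 4, 5 and 6, against 4.76, 4.66, 4.10, 4.38 and 4.76 on sorted arrays 2, 16, 17, 18 and 20. The groups did not overlap, by a margin of less than 0.2 between the lowest SKP and the highest sorted array. The difference was 0.80 (SE 0.22, limma adjusted p = 0.0152), and an unequal-variance test per gene did not call it (adjusted p = 0.0812). No expression of Tslp in either group is claimed from these levels.

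Among the SKP arrays, array 5 was highest for Il1rap and Il1rn, array 6 for Il33 and Casp1, and array 5 was lowest for Il1b. Among the 4 SKP arrays the spread of Il1a (SD 0.50), Tslp (0.46), Il18 (0.32), Il1rap (0.31) and Il1rn (0.29) exceeded the median SD of 0.14 over all genes. Casp1 and Il1b, at 0.13 and 0.12, were below it.

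**Figure D3:**
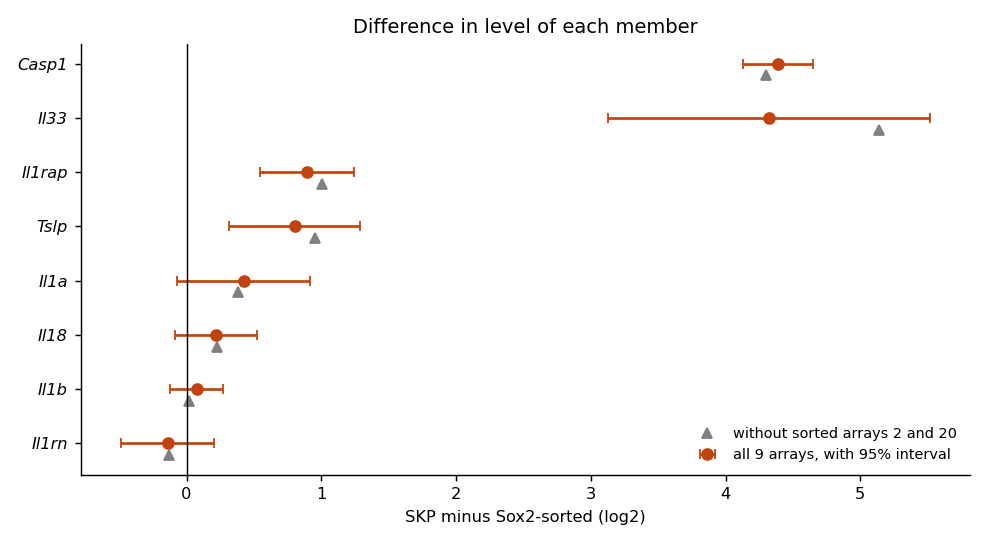
Difference of each member between SKPs and Sox2-sorted cells (SKP minus sorted, log2, horizontal axis), as points with 95% confidence intervals over all 9 arrays, and as triangles without sorted arrays 2 and 20. Casp1 (4.39, or 4.30 without that pair) and Il33 (4.32, or 5.14) stand apart from the other 6, which lie between -0.14 and 0.90. The interval drawn for Il33 is not a test, since the set was selected with its difference known.

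The rest of the pathway was described with 6 lists of 72 measured genes. Of these, 27 (37.5%) were higher and 12 (16.7%) lower in SKPs, against 20.2% and 16.9% of all genes. Without sorted arrays 2 and 20 these counts were 27 and 16, where 25.4% of all genes were higher and 21.1% lower. Some list genes had known differences on these arrays when the lists were written, among them the matrix metalloproteinases, Ccl7 and Nfkbia, so the counts are descriptions.

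Among 6 other ligands and antagonists of the family, 1 was higher and 1 lower (16.7% each, against 20.2% and 16.9% of all genes), and 4 lay at background level in both groups. Il18bp, which encodes a soluble inhibitor of IL-18, averaged 7.98 in SKPs and 7.63 in sorted cells (difference 0.35, adjusted p = 0.0441). Il1f5, the gene of the IL-36 receptor antagonist, averaged 6.12 in SKPs and 7.00 in sorted cells (difference -0.88, adjusted p = 0.0484), with 8.23 on sorted array 20. Without sorted arrays 2 and 20 the differences were 0.22 for Il18bp and -0.48 for Il1f5, and both genes were still called. The calls of both were lost on leaving out any SKP array.

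Of 7 other receptors 3 (42.9%) were higher and 1 (14.3%) lower, where 20.2% and 16.9% of all genes were. Il18rap, the signalling partner in the IL-18 receptor, was at 7.87, 7.40, 8.65 and 7.79 on SKP arrays 3, 4, 5 and 6, against 5.21 to 5.38 on sorted arrays. It was thus highest on SKP array 5 and at background level on all sorted arrays (difference 2.61, about 6.11-fold, adjusted p = 6.98e-06). With the sorted side at background level this fold is approximate. Il18r1, the IL-18-binding subunit, was at 4.79 in SKPs and 4.63 in sorted cells and was not called. Il1rl2, the receptor of IL-36, averaged 10.53 in SKPs and 9.66 in sorted cells (1.83-fold). Il1r2, a decoy receptor that binds IL-1 without signalling, averaged 7.88 in SKPs and 7.13 in sorted cells (1.69-fold, adjusted p = 0.00900). The lower gene, Il1rapl1, had background levels of 4.33 in SKPs and 5.76 in sorted cells.

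Of 13 signalling genes below the shared receptor complex, 6 (46.2%) were lower and 1 (7.69%) was higher, against 16.9% and 20.2% of all genes, and the median difference was -0.26. Myd88, the adaptor of IL-1 and Toll-like receptors, was the higher one, at 9.98 ± 0.12 in SKPs and 9.36 ± 0.13 in sorted cells (SD, n = 4 and 5), or 1.54-fold (limma adjusted p = 4.39e-04). Peli1, a ubiquitin ligase that acts on IRAK proteins, was 2.66-fold lower, at 9.59 in SKPs against 11.00 in sorted cells. Irak3, an inhibitory member of the IRAK kinase family, was 2.20-fold lower, at 8.27 in SKPs against 9.41 in sorted cells. Traf6, the ubiquitin ligase downstream of IRAK, was 1.98-fold lower, at 8.34 in SKPs against 9.33 in sorted cells, with its highest sorted values of 9.82 and 9.99 on arrays 2 and 20. Without that pair Traf6 was 1.52-fold lower.

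Inflammasome and processing genes were counted without Casp1, and 5 of 10 were higher and 0 lower, against 20.2% and 16.9% of all genes (median difference 0.64). Casp4, the mouse caspase-11, which senses bacterial lipopolysaccharide inside cells, was at 9.26, 9.10, 9.60 and 9.20 on SKP arrays 3, 4, 5 and 6, against 6.45, 5.65, 6.20, 5.78 and 5.91 on sorted arrays 2, 16, 17, 18 and 20. Its groups did not overlap (9.79-fold, limma adjusted p = 4.89e-07). The sorted mean of Casp4 was 6.00, at background level, so this fold is approximate too. Casp8, which initiates apoptosis at death receptors, was 4.31-fold higher, at 10.48 in SKPs against 8.37 in sorted cells. Gsdmd, which encodes the pore-forming protein that inflammatory caspases cleave, was 2.34-fold higher, at 8.82 in SKPs against 7.59 in sorted cells. The sensor Nlrp3 (5.24 in SKPs and 5.33 in sorted cells) was at background level and not called, and the adaptor Pycard (7.22 in SKPs and 7.29 in sorted cells) was above it and not called. The sensor Aim2 was called higher, at 6.62 in SKPs against a background level of 5.60 in sorted cells (adjusted p = 0.0306), though its groups overlapped. The other sensors, Nlrp1a, Nlrp1b and Nlrc4, were at background level and not called. All these sensors, Pycard and Il18r1 were named after their values were seen.

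Among 15 genes around TSLP and type 2 cytokines, 4 (26.7%) were higher and 1 (6.67%) lower, against 20.2% and 16.9% of all genes. Il4ra, the receptor chain shared by IL-4 and IL-13, averaged 9.45 in SKPs and 8.73 in sorted cells (1.64-fold, adjusted p = 6.40e-04). Il7r, which the TSLP receptor uses, was called higher at background levels of 5.47 in SKPs and 4.81 in sorted cells, and so was Il7 at 5.91 in SKPs and 5.34 in sorted cells. The unequal-variance test per gene did not call Il7r (adjusted p = 0.0542). The lower one was Stat5a, a signal transducer of these receptors, at 8.49 in SKPs and 9.02 in sorted cells (1.44-fold). Leaving out any of several single arrays ended the calls of Il7 and Stat5a, and Il7 was also not called without sorted arrays 2 and 20 (adjusted p = 0.132).

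Of 21 genes that IL-1 is known to induce in fibroblasts, 13 (61.9%) were higher and 3 (14.3%) lower, against 20.2% and 16.9% of all genes (median difference 0.57). The metalloproteinases Mmp3 and Mmp13 differed by 8.14 and 7.50 on the log2 scale, and the monocyte chemokine Ccl7 by 3.96. The sorted means of Mmp3 (5.64) and Mmp13 (5.70) were at background level, so the size of these differences is approximate. The 3 lower genes were Nfkbia (difference -2.17), which encodes an inhibitor of NF-kappaB, Tnfaip3 (-1.78), a ubiquitin-editing enzyme that restrains the pathway, and Nfkbiz (-1.14), a nuclear regulator of NF-kappaB. Many of these genes also answer to other signals, and of 7 fibroblast markers 3 were higher and 1 lower in SKPs.

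**Figure D4:**
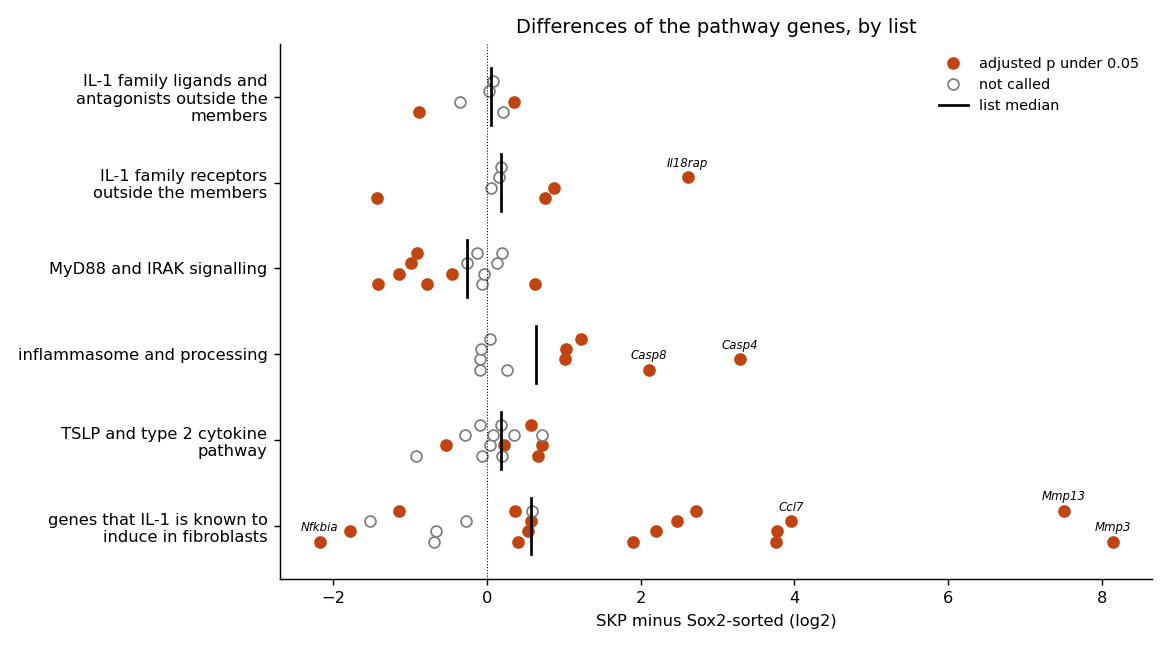
Differences of the 72 pathway genes (SKP minus sorted, log2, horizontal axis) in 6 lists down the page, with called genes filled, others open and the list median as a bar. Called signalling genes lie mostly left of 0 (6 lower, 1 higher), and called inflammasome genes lie right of it (5 higher, 0 lower).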

How the data were processed

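RNA of 9 preparations was hybridised to 1 Mouse Gene 1.0 ST array (Affymetrix) each. The authors deposited 1 log2 value per probe set and array. Per the submitters' processing notes, the tools were limma, RMA and Affymetrix Expression Console, with no version or role. The genome build and detection calls are not given in the sources used here. Of 35556 probe sets, 21789 had 1 gene symbol in the platform annotation and 1621 several. The brightest probe set stood for each of 19938 genes. Array medians lay between 7.15 and 7.30, and the number of arrays limits the precision.

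SKP minus sorted was fitted with limma 3.58.1 (lmFit, eBayes) in R 4.3.3, two-sided, with Benjamini-Hochberg adjusted p over all genes, called under 0.05. Every adjusted p printed without a tool is from this fit, unless its sentence speaks of alternatives or of left-out arrays. It was tested on simulated data with known differences.

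Members and lists were chosen with earlier results of these data known. For each list up to 3 called genes with the largest difference in each direction are named. The 5 nearest genes to Il33, the 10 set members and marker lists complete the rule. Alternatives were quantile and median scaling, a low-level filter, other probe set rules, array weights, trend and robust eBayes, an unequal-variance test and leaving out arrays. Motifs were searched in RefSeq promoter windows. Figures used matplotlib 3.10.9.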

Additional observations from a re-analysis of the deposited data

Results flagged for a closer look

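A single array far from the rest of its group was found in 8 of 72 groups of 4 or 5 arrays, over 36 named genes. For independent groups of normal values chance would give about 1 in 20. These genes share the same arrays and many were picked for their differences, so the count cannot be read against that rate.

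Among the members this was Il1b, at 5.74 on sorted array 20 against 5.99 to 6.00 on the other sorted arrays. Sorted array 20 was also the highest for Il1f5, at 8.23 with the next array at 6.95, and for Mmp13, at 6.95 with the next at 5.47. SKP array 5 was highest for Gsdmd, at 9.04 with the next at 8.76, and for Il7r, at 5.95 with the next at 5.36, and lowest for Stat5a, at 8.23 with the next at 8.54. SKP array 3 was lowest for Peli1, at 9.44 with the next at 9.62. SKP array 4 was lowest for Mmp13, at 12.90 with the next at 13.29. The causes were not tested.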

How the results depend on the processing

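Under 18 alternatives the difference of Casp1 stayed called, between 4.30 and 4.46, and that of Il1rap between 0.77 and 1.02 (adjusted p up to 0.0203). The difference of Il33 ranged from 4.07 to 5.14. Tslp was called in every alternative that measured it except the unequal-variance test, where its difference of 0.80 had an adjusted p of 0.0812, and the cause was not tested. The filter on genes with a mean under 6.31 left Il1a, Il1b, Il18 and Tslp untested, so 2 members were called higher there. Il1a, Il1b, Il1rn and Il18 were called in none of the alternatives that tested them (lowest adjusted p 0.0508, for Il1a). Leaving out single arrays kept 3 members called higher and gave 3396 to 4568 of all genes higher, and array weights gave 6145 against 4020. Of all calls 54.4% were upward in the deposited scaling, 64.4% with arrays centred on their medians and 53.6% with quantile normalization. No difference of a member changed sign. No paired analysis was possible because the groups share no replicate number. Without detection calls, changes at background level cannot be measured here.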
